A study of Rattus norvegicus with 12 samples.

Results

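The genes described here are those of the Toll-like receptor (TLR) set of the table, the lipopolysaccharide (LPS) co-receptor genes Cd14 and Ly96, the receptor genes Tlr1, Tlr2, Tlr3, Tlr4, Tlr7 and Tlr9, and the adaptor gene Myd88. They were taken by gene name from a table of 34525 rows, and 8 of the 9 names had a row. Ly96 had none under that name. RNA sequencing covered 12 libraries of rat brain in a study of chronic orofacial pain, with 3 libraries in each of 4 groups, which were thalamus CFA, thalamus saline, RVM CFA and RVM saline. RVM is the rostral ventral medulla, a part of the brainstem from which descending fibres control trigeminal and spinal pain pathways, and the thalamus is the relay of sensory input to the cortex. Saline is 0.9% sodium chloride, and the treatment label of the other rats is the letters CFA, most often short for complete Freund's adjuvant, an emulsion that raises a lasting inflammation.

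The labels give no dose, site, time, strain, sex or age, and no statement that each library came from a separate animal, so a p-value speaks only of the spread among the libraries, which may be technical. Their extraction text speaks of retinas, but 10 retinal marker genes summed to 5.37 to 12.3 FPKM per library, while 13 hindbrain markers summed to 0.649 to 1.32 FPKM in thalamus and 151 to 201 FPKM in RVM. FPKM is fragments scaled to gene length and library size, so levels of different genes can be set side by side. The libraries held 14.94 to 19.24 M reads, and 3 reads, the upper limit that a gene listed at 0 allows, equal 0.156 to 0.201 CPM (counts per M reads). Choroid plexus markers summed to 10340 and 2474 FPKM in thalamus CFA libraries 1 and 2, and to 2.82 to 28.2 FPKM in the other 10. Of 8 mural and meningeal markers tested in thalamus, 6 had a log2 change above 0 with CFA and 0 were called, with a median of 1.33. Among them, Col3a1 was at 63.8, 8.25 and 28.0 FPKM in thalamus CFA libraries and 1.84 to 6.09 FPKM in thalamus saline, so CFA library 3 was high in it too. The part of such tissue in the results was not tested. The second RVM CFA library was the lowest of its group for 8 of the 8 genes. Results of the 8 genes are therefore given with and without thalamus CFA libraries 1 and 2 and RVM CFA library 2 where the call changed. Of the lists in thalamus, this is done for the other receptors, the adaptors and kinases, and the induced targets. The remaining pathway lists and the marker lists in thalamus are given with all libraries, so how far their calls rest on these libraries is not shown.

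TLRs are pattern receptors of innate immunity that bind microbial molecules and some released by injured tissue. Surface receptors such as TLR2 and TLR4 bind lipopeptides and LPS, and CD14 passes LPS to TLR4 and its partner MD-2, the product of Ly96. TLR3, TLR7 and TLR9 sit in endosomes, where they bind double-stranded RNA, single-stranded RNA and DNA with unmethylated CpG. Most TLRs signal through the adaptor MyD88, while TLR3 uses TRIF (Ticam1), and both routes lead to NF-kB and interferon regulatory factors (IRFs). In the brain these genes are known chiefly from microglia, with TLR3 also known from astrocytes.

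The promoters of the 8 genes were read from RefSeq (build GRCr8, 250 bases before the listed start), because the genes moved together in the libraries below and Spi1, which encodes the myeloid factor PU.1, followed Tlr2 closely. The PU.1 core GAGGAA, searched on both strands, was found in 5 of the 8 promoters (Cd14, Tlr3, Tlr4, Tlr7 and Tlr9) and in 23.2% of 27457 RefSeq promoters. It was not found in Tlr1, Myd88 or Tlr2, although Tlr2 was the gene that Spi1 followed. The NF-kB form, GGG and CC with any 5 bases between them, was found in 2 (Tlr2 and Tlr3), against 43.5% of promoters. The IRF form, GAAA repeated after any 2 bases, was found in Myd88 alone, against 3.29%, and the AP-1 form TGANTCA in Myd88 and Tlr9, against 6.36%. These letters were chosen after the sequences had been seen, no match of 1 form overlapped a match of another in the 8 promoters, and a match is not a measured binding site. The examples shown are the promoters of the 3 receptor-side genes Cd14, Tlr4 and Tlr9, with GAGGAA (or TTCCTC, its reverse complement) in capitals, and that of Myd88, with the IRF form in capitals. The windows are chr18:28611159-28611408 (minus strand), chr5:85160997-85161246 (plus), chr8:115743157-115743406 (plus) and chr8:127956231-127956480 (minus). The Cd14 window lies within the RefSeq gene record, which begins further upstream than the start used here.
Cd14: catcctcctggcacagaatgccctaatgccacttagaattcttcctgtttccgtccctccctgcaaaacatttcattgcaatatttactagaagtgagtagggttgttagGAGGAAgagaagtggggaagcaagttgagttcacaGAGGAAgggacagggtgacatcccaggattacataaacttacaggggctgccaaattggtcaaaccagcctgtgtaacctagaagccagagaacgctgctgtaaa
Tlr4: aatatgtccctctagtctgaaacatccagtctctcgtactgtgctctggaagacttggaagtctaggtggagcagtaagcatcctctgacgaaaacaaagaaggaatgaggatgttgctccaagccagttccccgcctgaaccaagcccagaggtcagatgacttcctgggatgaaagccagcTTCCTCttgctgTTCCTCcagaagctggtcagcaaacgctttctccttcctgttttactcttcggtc
Tlr9: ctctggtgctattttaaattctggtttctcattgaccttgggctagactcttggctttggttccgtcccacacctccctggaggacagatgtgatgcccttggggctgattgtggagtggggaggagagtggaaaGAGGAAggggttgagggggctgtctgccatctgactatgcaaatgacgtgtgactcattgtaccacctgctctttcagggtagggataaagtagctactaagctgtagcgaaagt
Myd88: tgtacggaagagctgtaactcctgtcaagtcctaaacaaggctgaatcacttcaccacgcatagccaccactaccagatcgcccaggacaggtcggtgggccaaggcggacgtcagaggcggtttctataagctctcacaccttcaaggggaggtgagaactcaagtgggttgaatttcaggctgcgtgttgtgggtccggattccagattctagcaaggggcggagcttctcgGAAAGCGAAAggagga

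In thalamus, each of the 8 genes was higher in the 3 CFA libraries than in the 3 saline libraries, with no overlap. Over all genes tested, which passed a filter that Tlr9 failed, 12.2% were higher without overlap. The means differed by 18.4-fold for Cd14, 18.3-fold for Tlr1, 7.90-fold for Tlr9, 5.66-fold for Tlr2, 4.86-fold for Tlr4, 3.61-fold for Tlr7, 3.26-fold for Myd88 and 2.77-fold for Tlr3. Of the 7 that passed the filter of a mean of 1 FPKM, 7 rose in the limma test on log2(FPKM + 1), beside 3.84% of the 14722 genes tested, while 0.272% fell. Cd14, Tlr1 and Tlr4 passed that filter through their CFA libraries, since their saline means were under 1 FPKM, so the count of 7 is a description of the genes tested. The median log2 change of the 7 was 1.36, against −0.08 over all genes tested. In bulk tissue, a change in the number of cells that carry these transcripts and a change in RNA per cell cannot be told apart.

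**Figure D1:**
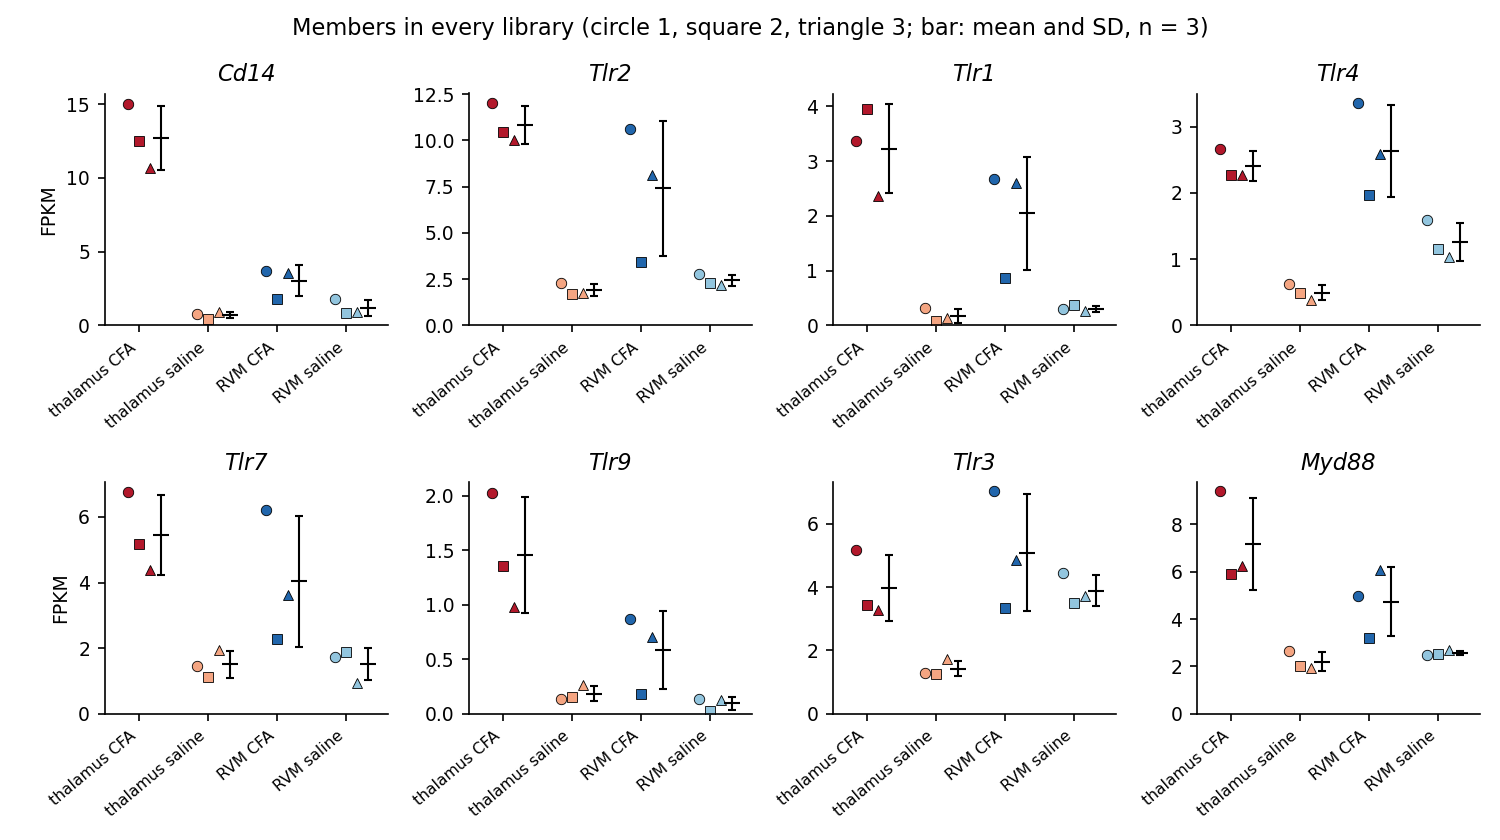
FPKM of the 8 genes in every library by group, with the mean and SD (n = 3) beside the points. The thalamus CFA points lie above the thalamus saline points in each panel, and the second RVM CFA library (square) is the lowest of its group in each panel.

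Cd14, the LPS co-receptor, showed the largest change of the set on log2(FPKM + 1), but its lead over Tlr1 depended on that choice. Their folds of means were nearly the same, at 18.4 for Cd14 and 18.3 for Tlr1. Over the alternative fits in thalamus, the highest log2 change was 4.24 for Tlr1 and 4.21 for Cd14. It was at 15.0, 12.51 and 10.64 FPKM in thalamus CFA libraries, against 0.740, 0.44 and 0.89 FPKM in thalamus saline libraries. The lowest CFA library lay far above the highest saline library, on 300 to 484 reads against 12 to 25. The log2 change was 3.02 ± 0.17 (SE) with an adjusted p of 0.000646. In thalamus CFA, Cd14 was the most abundant of the 8 transcripts, whereas in thalamus saline it ranked 5 of 8, behind Myd88, Tlr2, Tlr7 and Tlr3. It made up 26.6%, 27.8% and 26.5% of the summed FPKM of the 8 genes in thalamus CFA libraries, against 7.80%, 6.04% and 9.87% in thalamus saline libraries. In RVM its share was 9.29% to 11.1% in CFA libraries and 6.38% to 11.7% in saline libraries, which overlapped.

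Ly96 encodes MD-2, the part of the TLR4 complex that binds the lipid of LPS. A row with no gene name on chromosome 5 (1970103 to 1989508, minus strand, in the table's own coordinates) carries the authors' description of a likeness to lymphocyte antigen 96, the other name of MD-2. It was at 0.914, 0.561 and 0.574 FPKM in thalamus CFA libraries, against 0.497, 0.382 and 0.226 FPKM in thalamus saline libraries. Its RVM values were 0.888, 0.612 and 0.593 FPKM with CFA and 0.547, 0.610 and 0.555 FPKM with saline. The row is not counted as Ly96 and was below the filter in every comparison.

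Among the surface receptors, Tlr2, whose product pairs with TLR1 to bind triacylated lipopeptides, was at 12.02, 10.46 and 10.05 FPKM in thalamus CFA libraries, against 2.27, 1.71 and 1.77 FPKM in thalamus saline libraries. It rose by 2.02 ± 0.13 on the log2 scale (adjusted p = 0.000764). Tlr1 was at 3.36, 3.96 and 2.36 FPKM in thalamus CFA libraries, against 0.321, 0.0796 and 0.129 FPKM in thalamus saline libraries. These saline values rest on 15, 3 and 5 reads, so the fold of Tlr1 is poorly fixed, and its rise was 1.83 ± 0.21 (adjusted p = 0.00586). Tlr1 has a close paralog in Tlr6, and the sources used here do not give how reads were split between them. Tlr4, the LPS receptor itself, was at 2.66, 2.27 and 2.27 FPKM in thalamus CFA libraries, against 0.617, 0.485 and 0.380 FPKM in thalamus saline libraries. Its rise was 1.19 ± 0.16 (adjusted p = 0.0110), with a far smaller fold of means than Cd14 had.

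Of the endosomal receptors, Tlr7, a sensor of single-stranded RNA, was at 6.77, 5.18 and 4.37 FPKM in thalamus CFA libraries, against 1.44, 1.14 and 1.95 FPKM in thalamus saline libraries. It rose by 1.36 ± 0.20 (adjusted p = 0.0141). Tlr3, the sensor of double-stranded RNA, was at 5.17, 3.45 and 3.29 FPKM in thalamus CFA libraries, against 1.30, 1.27 and 1.72 FPKM in thalamus saline libraries. Its rise of 1.02 ± 0.19 was the smallest of the set, and its adjusted p of 0.0376 was the nearest to the threshold of 0.05. Tlr9, the sensor of CpG DNA, was at 2.02, 1.36 and 0.982 FPKM in thalamus CFA libraries, against 0.139, 0.153 and 0.260 FPKM in thalamus saline libraries, on 53 to 125 reads against 8 to 14. It failed the filter. With no filter its log2 change was 1.03 ± 0.17 with an adjusted p of 0.0421, beside 2.36% of 23138 genes called higher in that fit.

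Myd88 encodes the adaptor that TLR2, TLR4, TLR7 and TLR9 share with the interleukin-1 receptor family. It was at 9.40, 5.89 and 6.22 FPKM in thalamus CFA libraries, against 2.66, 2.03 and 1.92 FPKM in thalamus saline libraries. The groups did not overlap, and Myd88 rose by 1.33 ± 0.19 (adjusted p = 0.0150). In thalamus saline it was the most abundant of the 8 transcripts, and in thalamus CFA it ranked 3 of 8.

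The calls differed in how much they rested on single libraries. Cd14, Tlr1 and Tlr2 passed in 6 of 6 fits that each left out a thalamus library. Tlr3 passed in 0 of the 6, with adjusted p-values up to 0.150. Myd88 and Tlr4 each missed the threshold without thalamus saline library 2 or 3, and Tlr7 without CFA library 2 or saline library 2. Without thalamus CFA libraries 1 and 2, the CFA group is library 3 alone, assumed to vary as the saline libraries do. Cd14 was then called (2.79, adjusted p = 0.0460), and the other 6 were not, at log2 changes of 0.82 to 1.93.

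In RVM, the CFA means of the 8 genes were 1.31-fold (Tlr3) to 6.72-fold (Tlr1) those of saline, and 7 of the 8 genes were higher in each CFA library than in any saline library, Tlr3 being the exception. Over all genes tested, which again leave out Tlr9, 7.27% were higher without overlap. No gene of the 7 tested was called, beside 0% of 14289 genes in the limma test, where 2030 genes had an unadjusted p below 0.05, and limma-voom on the recovered reads also called 0. The median log2 change of the 7 was 0.88, against −0.02 over all genes tested. Tlr1 passed the filter in RVM through its CFA libraries, with a saline mean of 0.304 FPKM, so its RVM tests here and below are descriptions.

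Tlr2 was at 10.6, 3.44 and 8.15 FPKM in RVM CFA libraries, against 2.79, 2.29 and 2.19 FPKM in RVM saline libraries. CFA libraries 1 and 3 stood near the thalamus CFA level, and CFA library 2 stood just above saline. The log2 difference was 1.19 ± 0.33 with an adjusted p of 0.254. Tlr1 was at 2.67, 0.857 and 2.61 FPKM in RVM CFA libraries, against 0.289, 0.366 and 0.257 FPKM in RVM saline libraries, with a log2 difference of 1.16 ± 0.28 (adjusted p = 0.242). Cd14 was at 3.66, 1.80 and 3.57 FPKM in RVM CFA libraries, against 1.78, 0.802 and 0.888 FPKM in RVM saline libraries. Its second CFA library exceeded the first saline library by little, and the log2 difference was 0.88 ± 0.26 (adjusted p = 0.257). Tlr4 was at 3.35, 1.97 and 2.59 FPKM in RVM CFA libraries, against 1.59, 1.16 and 1.03 FPKM in RVM saline libraries, with a difference of 0.68 ± 0.18 (adjusted p = 0.242).

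Tlr7 was at 6.20, 2.28 and 3.63 FPKM in RVM CFA libraries, against 1.73, 1.88 and 0.944 FPKM in RVM saline libraries, and Myd88 was at 4.97, 3.19 and 6.06 FPKM, against 2.49, 2.54 and 2.68 FPKM. Their adjusted p-values were 0.265 and 0.254. Tlr9 was at 0.870, 0.184 and 0.702 FPKM in RVM CFA libraries, against 0.133, 0.0221 and 0.130 FPKM in RVM saline libraries, where it rested on 7, 1 and 7 reads. Tlr3 stood apart from the other receptors, because its RVM groups overlapped. It was at 7.03, 3.35 and 4.87 FPKM in RVM CFA libraries, against 4.43, 3.51 and 3.73 FPKM in RVM saline libraries, and its interval ran from −0.25 to 0.80.

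The second RVM CFA library was singled out because the set was lowest in it, so calls gained without it follow in part from that choice and are given as a description. Without it, Tlr2 (1.60, adjusted p = 0.00473), Tlr1 (1.48, adjusted p = 0.00761) and Myd88 (0.86, adjusted p = 0.0170) were called higher, beside 2.73% of the 14289 genes called higher. Cd14, Tlr4, Tlr7 and Tlr3 then had adjusted p-values of 0.0564, 0.0727, 0.0716 and 0.194. The fits that left out any other single RVM library called 0 of the 7. The second RVM CFA library was also the lowest of its group in summed microglial markers, at 203 FPKM beside 388 and 325 FPKM, with RVM saline libraries at 170 to 190 FPKM. Its macrophage and monocyte markers summed to 65.1 FPKM, beside 231.0 and 231.4 FPKM in the other RVM CFA libraries and 39.1 to 52.8 FPKM in RVM saline. The part of these cell types in the result was not tested.

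**Figure D2:**
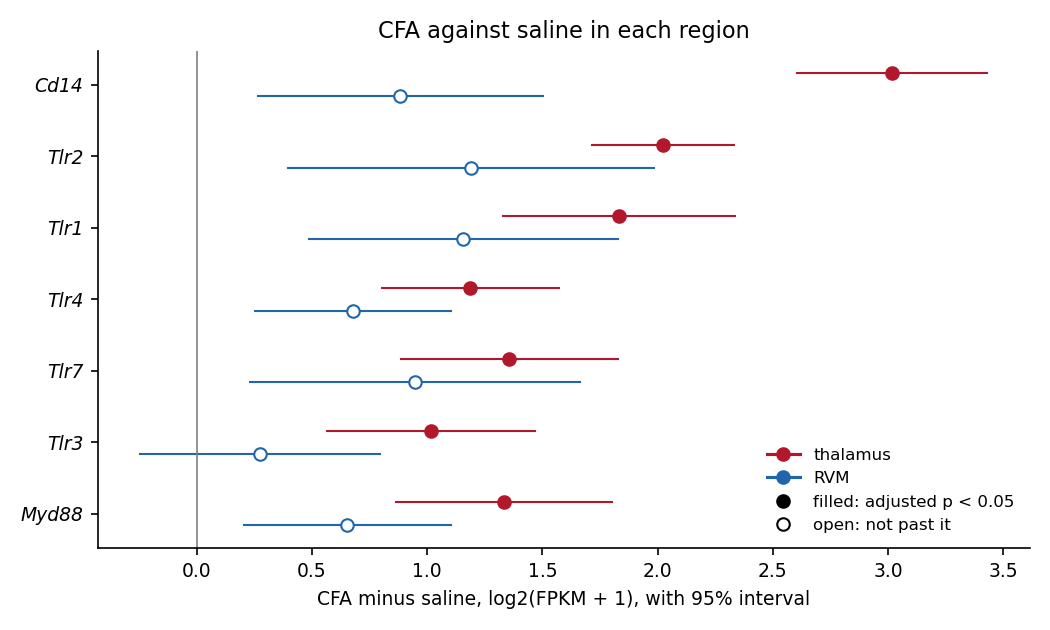
CFA minus saline on the log2(FPKM + 1) scale for the 7 genes tested, with 95% intervals from limma, in thalamus (red) and RVM (blue). Filled points passed an adjusted p of 0.05, which was so for 7 genes in thalamus and 0 in RVM. The intervals of Cd14 in the 2 regions do not overlap, at 2.61 to 3.43 and 0.264 to 1.504, and those of each other gene do. The limma test of the difference between the CFA effects did not pass for Cd14 (adjusted p = 0.270).

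The difference between the CFA effects of the 2 regions was tested as the interaction of region and treatment over the 12 libraries. No gene of the 7 tested was called, beside 0% of 13738 genes in limma, where 1560 genes had an unadjusted p below 0.05, and limma-voom called 0. Each of the 7 had a larger log2 effect in thalamus. The differences were 2.13 for Cd14, 0.83 for Tlr2, 0.74 for Tlr3, 0.68 for Myd88, 0.67 for Tlr1, 0.51 for Tlr4 and 0.41 for Tlr7. Cd14 had an interval of 1.40 to 2.87 and an unadjusted p of 5.717e-05, but its adjusted p was 0.270. Cd14, Tlr1 and Tlr4 met the filter in thalamus through their CFA libraries, with thalamus saline means of 0.690, 0.176 and 0.494 FPKM. Their tests of this difference, with all libraries or with some left out, are therefore descriptions. Tlr7 had an interval of −0.45 to 1.27, so neither a like effect nor a difference was shown for it. Without thalamus saline library 1 and thalamus CFA library 1, which had the lowest thalamic markers of their groups, Cd14 passed at 2.04 (adjusted p = 0.0490), among 145 of all genes.

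In saline rats, 1 of the 4 genes tested was called between the regions, beside 22.7% of all genes called lower in thalamus and 22.6% called higher, a share near that background. The gene was Tlr3, at 1.30, 1.27 and 1.72 FPKM in thalamus saline libraries, against 4.43, 3.51 and 3.73 FPKM in RVM saline libraries, where it was the most abundant of the 8 transcripts. The log2 difference was −1.01 ± 0.14 with an adjusted p of 0.00169. Tlr2, Myd88 and Tlr7 differed by −0.23, −0.16 and 0.0037, and their groups overlapped. Tlr4 had no overlap, at 0.380 to 0.617 FPKM in thalamus and 1.03 to 1.59 FPKM in RVM, and failed the filter. With no filter, its difference was −0.59 ± 0.13 (adjusted p = 0.0201), beside 14.2% of genes called lower. The ratio of means, thalamus over RVM, was 0.392 for Tlr4 and 0.368 for Tlr3. Tlr9 was higher in thalamus without overlap, at 0.139 to 0.260 FPKM against 0.0221 to 0.133 FPKM in RVM, and did not pass with no filter (0.11 ± 0.07, adjusted p = 0.296). Over the genes that passed the filter, 29.9% were lower in thalamus without overlap and 28.9% were higher. Markers of astrocytes, which are known to carry TLR3, summed to 1547 to 2034 FPKM in thalamus saline and 3575 to 3822 FPKM in RVM saline, but the list went both ways. Of its 9 genes, Gfap, S100b, Aqp4, Aldh1l1 and Fgfr3 were called lower in thalamus, while Slc1a3, Sox9, Slc1a2 and Gja1 had uncalled differences of 0.76, 0.28, 0.08 and 0.03. S100b, with means of 843 FPKM in thalamus saline and 2135 FPKM in RVM saline, and Gfap, with means of 124 and 709 FPKM, carried most of the gap between the sums. The part of astrocytes in the Tlr3 difference was not tested.

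In CFA rats, the gene called between the regions was Cd14, at 10.6 to 15.0 FPKM in thalamus and 1.80 to 3.66 FPKM in RVM. Its log2 difference was 1.80 ± 0.23 (adjusted p = 0.00291), and it was the 1 call among 8 genes tested, a share near the 14.9% of all genes called higher in thalamus. Tlr9 was higher without overlap, at 0.982 to 2.02 FPKM in thalamus and 0.184 to 0.870 FPKM in RVM. It did not pass (0.64 ± 0.26, adjusted p = 0.103), and 24.4% of genes were higher in thalamus without overlap. Tlr9 met the filter through its thalamus libraries, with an RVM CFA mean of 0.5855 FPKM, so its tests in CFA rats are descriptions. Beside the 14.9% called higher, 18.1% were called lower. Tlr3 overlapped between the regions in CFA rats, with a difference of −0.27 and an interval of −0.88 to 0.35. Tlr1, Tlr2, Tlr4, Tlr7 and Myd88 overlapped as well, at differences of −0.08 to 0.60. With the FPKM totals of the libraries made equal, the median difference over all genes was 0.29 in CFA rats and 0.14 in saline rats, where it had been −0.002 and −0.02. The calls over all genes then split into 5088 higher and 1025 lower in CFA rats, where they had been 2206 and 2674, and into 4558 and 2013 in saline rats, where they had been 3250 and 3273. On that scale Cd14 (2.10), Myd88 (0.81) and Tlr9 (0.81) were called higher in CFA rats, while Tlr4 and Tlr3 changed sign without a call. For Cd14 the order of the group means was thalamus CFA, RVM CFA, RVM saline and thalamus saline, and the last pair overlapped. For Tlr3 it was RVM CFA, thalamus CFA, RVM saline and thalamus saline, with thalamus saline alone clear of its neighbour.

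Markers of immune cells moved with the set. Of 10 microglial markers tested in thalamus, 4 rose (P2ry12, Cx3cr1, Csf1r and Aif1) and 0 fell, and the sum of the 11 in the table was 308 to 353 FPKM in CFA libraries and 160 to 181 FPKM in saline libraries. Tmem119, also a microglial marker, had a log2 change of 0.17 that did not pass. Of 6 macrophage and monocyte markers tested, Lyz2 and Plac8 rose, and the sum of 9 was 586 to 689 FPKM in CFA libraries and 32.3 to 46.7 FPKM in saline libraries, most of it Lyz2. Plac8 passed the filter through its CFA libraries, with a saline mean of 0.401 FPKM. F13a1 had a lower mean with CFA (2.57 FPKM) than with saline (4.26 FPKM), without a call. Mrc1 (1.19, adjusted p = 0.0712), a marker of border macrophages, did not pass, and Cd209a was listed at 0 in each of the 12 libraries. Of 11 neutrophil markers 4 were tested, each of which passed the filter through its CFA libraries alone, and S100a8, S100a9 and Csf3r rose. The sum of the 11 was 13.7 to 41.3 FPKM in CFA libraries and 1.61 to 2.18 FPKM in saline libraries. Itgax, Batf3 and Clec10a rose among 5 dendritic cell markers tested. Flt3 and Zbtb46, also tested, had lower means with CFA and were not called. Flt3 was at 3.70 FPKM with CFA and 6.47 FPKM with saline, and Zbtb46 at 1.82 and 2.60 FPKM. Cd8a and Lck rose among 3 T cell markers, and Jchain was the 1 B and plasma cell marker tested and rose. Itgax, Cd8a and Lck passed the filter through their CFA libraries, with saline means of 0.0326, 0.0715 and 0.719 FPKM. T cell markers summed to 15.3 to 70.8 FPKM in CFA libraries and 2.38 to 6.60 FPKM in saline libraries. The top sum, that of thalamus CFA library 1, was mostly Cd4, which read 54.02 FPKM there. Cd4 read 7.27 FPKM in library 2 of that group and 8.26 FPKM in library 3, and it was not called (2.26, adjusted p = 0.1875). RVM CFA library 1 likewise had 47.25 FPKM of Cd4, while library 2 of its group had 2.085 FPKM and library 3 had 2.609 FPKM. Of the markers of neurons 0 of 9, and of those of thalamus 0 of 10, had a log2 change above 0. Of these, limma called 0, and Syt1, Stmn2 and Eno2 had an unadjusted p below 0.05. The thalamic markers summed to 271 to 830 FPKM in CFA libraries and 672 to 1259 FPKM in saline libraries, which overlapped. Microglia, macrophages, neutrophils and dendritic cells all express TLRs, and the part of each cell type in the results was not tested.

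**Figure D3:**
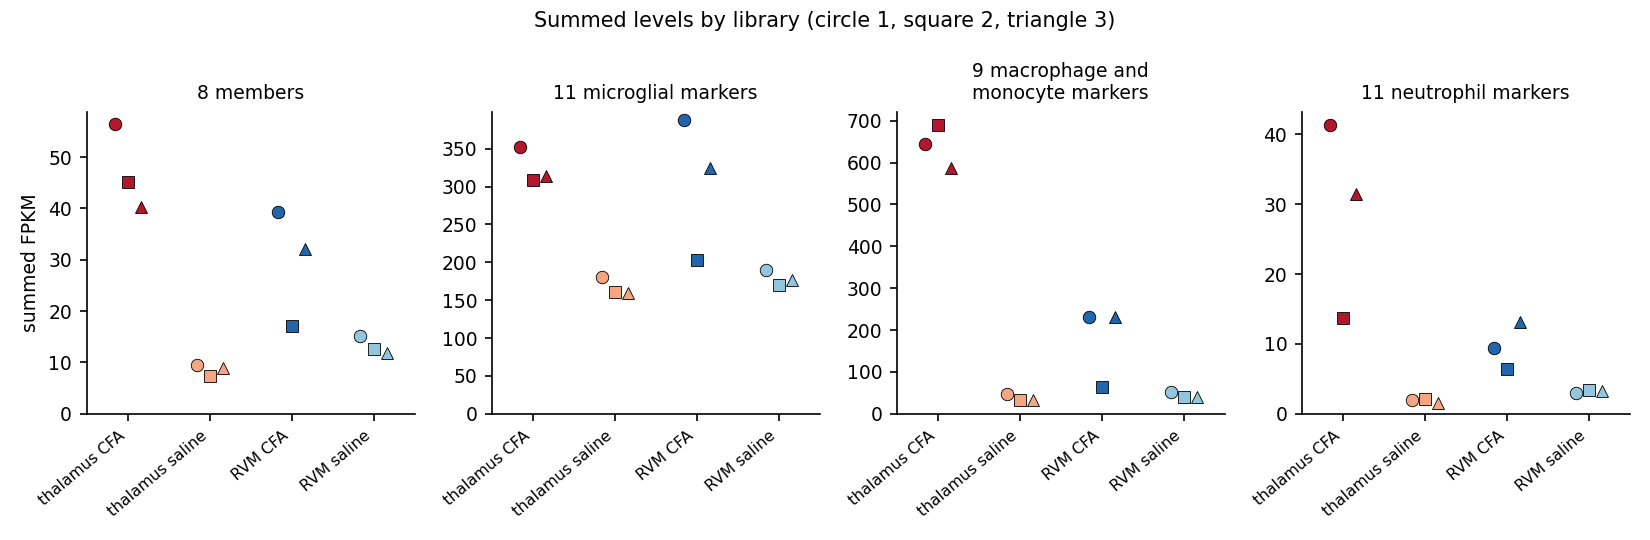
Summed FPKM by library of the 8 genes and of microglial, macrophage and monocyte, and neutrophil markers. The 8 genes summed to 40.2 to 56.4 FPKM in thalamus CFA and 7.30 to 9.49 FPKM in thalamus saline, and the second RVM CFA library is the lowest of its group in each panel.

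Set against the summed microglial markers, the ratio of the CFA mean to the saline mean in thalamus was smaller for each gene, at 1.41 (Tlr3) to 9.72 (Tlr1). Per 100 FPKM of these markers, Cd14 stood at 3.90 ± 0.45 FPKM in thalamus CFA and 0.413 ± 0.142 FPKM in thalamus saline (SD, n = 3 each). In thalamus, 7 of the 8 genes were still higher in CFA libraries without overlap, beside 3.61% of all genes tested on that scale, and Tlr3 overlapped, at 1.05 to 1.47 and 0.720 to 1.08. In RVM, Tlr1, Tlr2, Tlr7 and Tlr9 were higher without overlap, beside 1.25% of all genes, and Cd14, Tlr4 and Myd88 overlapped. Tlr3 was lower in RVM CFA libraries, at 1.502 to 1.814 against 2.068 to 2.339, as were 59.3% of all genes on that scale. The shares of all genes are over those that passed the filter, which Tlr9 failed in both regions. These ratios are descriptions, since several of the markers changed themselves.

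**Figure D4:**
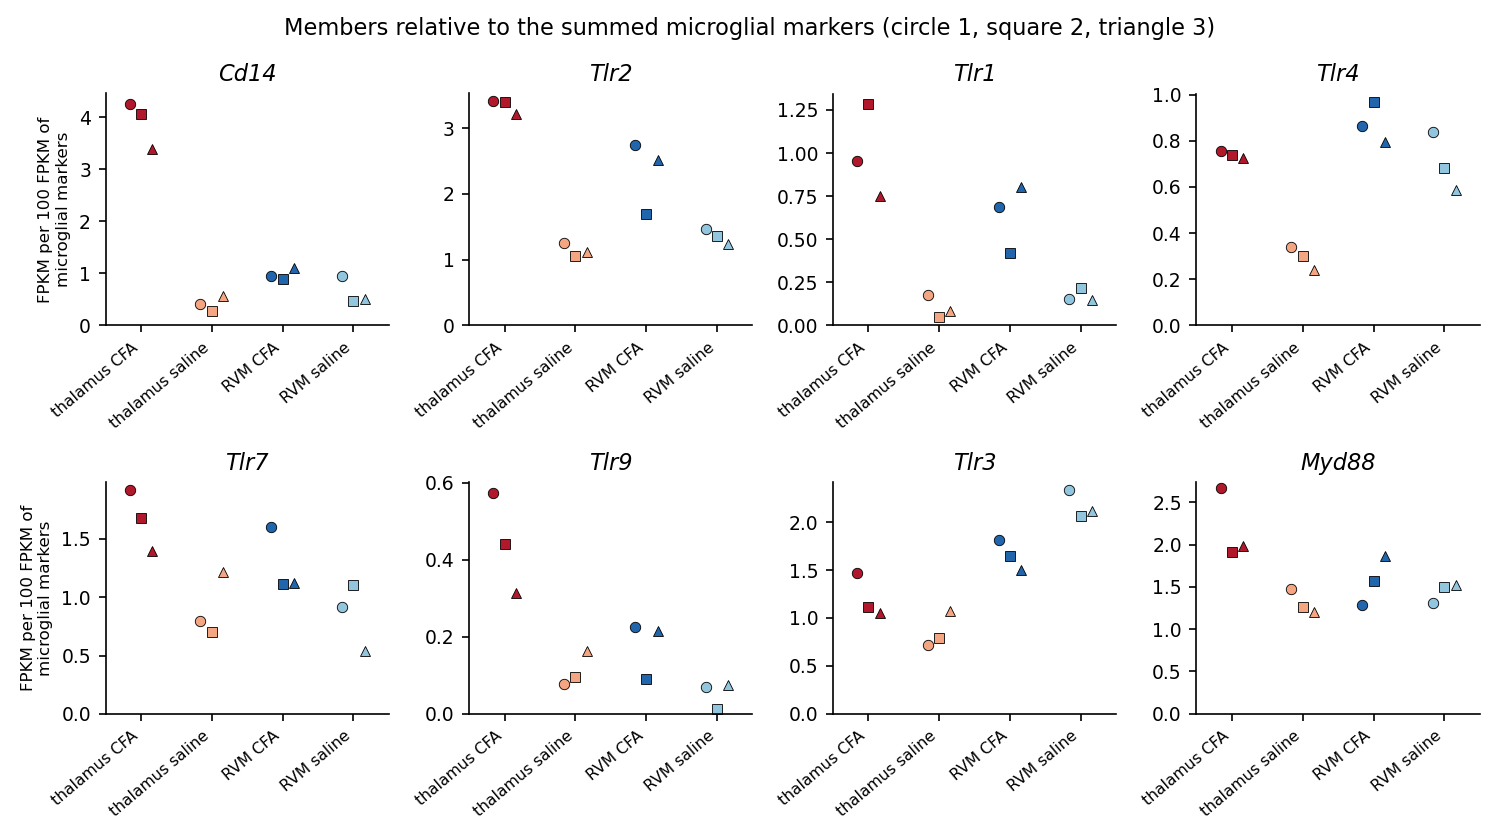
FPKM of each gene per 100 FPKM of 11 summed microglial markers, by library. Cd14 lies between 3.39 and 4.25 in thalamus CFA libraries and between 0.274 and 0.557 in thalamus saline libraries, and Tlr3 is the gene that stands highest in RVM saline.

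Of 8 other genes of the receptor family in the table, 4 passed the filter in thalamus, and these 4 rose, beside 3.84% of all genes tested. Tlr8 and Tlr13 passed the filter through their CFA libraries, with saline means of 0.082 and 0.727 FPKM, so the count is a description. Ly86 (2.71, adjusted p = 0.00133) and Cd180 (1.84, adjusted p = 0.00248) encode MD-1 and RP105, a pair that resembles MD-2 and TLR4. Tlr13 (1.42, adjusted p = 0.00595), a sensor of bacterial ribosomal RNA in mouse, and Tlr8 (1.58, adjusted p = 0.00629), a sensor of single-stranded RNA, were the others. No row bears the name Tlr13, and its row was matched through a RefSeq synonym. Tlr6, the second partner of TLR2, was below the filter, at 0.590 to 0.692 FPKM in thalamus CFA and 0.211 to 0.351 FPKM in thalamus saline. Without thalamus CFA libraries 1 and 2 none of the 4 was called.

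Among genes that deliver ligands to TLRs or carry the receptors to endosomes, 3 of 9 tested rose in thalamus and 0 fell, with a median log2 change of 0.53. Unc93b1, which escorts the nucleic-acid receptors out of the endoplasmic reticulum, was at 26.4, 21.2 and 23.6 FPKM in CFA libraries, against 3.79, 4.41 and 4.51 FPKM in saline libraries. It rose by 2.24 ± 0.12 (adjusted p = 0.000580). Grn, which encodes progranulin, rose by 1.49 (adjusted p = 0.00558), and Tasl, an adaptor for IRF5 activation by endosomal TLRs, by 1.42 (adjusted p = 0.00965). Tasl passed the filter through its CFA libraries, with a saline mean of 0.169 FPKM, so its call is a description. Its row bears another name and was matched through a RefSeq synonym. Lbp, the serum protein that hands LPS to CD14, was at 23.6, 2.47 and 7.02 FPKM in CFA libraries, against 0.352, 0 and 0.0249 FPKM in saline libraries. Its groups did not overlap, but its CFA libraries differed widely and it did not pass (2.98 ± 0.67, adjusted p = 0.0717).

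Downstream of the receptors, 5 of 23 adaptor, kinase and IRF genes rose in thalamus and 0 fell, and their median log2 change of 0.28 was nearer to that of all genes. The calls included Pik3ap1 (1.87, adjusted p = 0.00328), which links TLRs to PI3-kinase, Irf5 (1.05, adjusted p = 0.00690), Btk (1.22, adjusted p = 0.0120) and Irf7 (1.26, adjusted p = 0.0228). Of the 23 genes, 20 had a saline mean of at least 1 FPKM, and Btk, at 0.531 FPKM, passed the filter through its CFA libraries. The next 4 genes of the shared signalling core, named here after their values were seen, did not pass. Tirap, the adaptor that brings MyD88 to TLR2 and TLR4, had a log2 change of −0.05, Irak1 −0.02, Irak4 0.65 and Traf6 −0.10. The p of these 4 does not show that they were unchanged, and the difference between lists was not tested. Without thalamus CFA libraries 1 and 2 the count was 0, and without thalamus saline 1 and CFA 1 it was 3.

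Of 15 inhibitors of TLR signalling tested, 3 rose in thalamus, which were Lyn (1.46, adjusted p = 0.00381), Nlrc5 (1.29, adjusted p = 0.0118) and Tnfaip3 (1.11, adjusted p = 0.0143), the gene of the ubiquitin-editing enzyme A20. Of the 15, 11 had a saline mean of at least 1 FPKM, and Nlrc5, at 0.231 FPKM, passed the filter through its CFA libraries. Dusp1, a phosphatase of MAP kinases, had a log2 change of −1.25 that missed the threshold (adjusted p = 0.0516). Of 10 endogenous proteins reported as TLR ligands, Fn1 (1.65, adjusted p = 0.00820), S100a9 (3.17, adjusted p = 0.0154) and S100a8 (2.58, adjusted p = 0.0381) rose, and S100a8 and S100a9 are also counted above as neutrophil markers. Hmgb1 had a log2 change of −0.20 that did not pass.

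Genes known to be induced through TLRs formed the last list. Of 14 tested in thalamus 10 rose and 0 fell, with a median log2 change of 1.80, and 9 of the 14 passed the filter through their CFA libraries. Ccl2, a monocyte-attracting chemokine, was at 23.8, 18.3 and 6.63 FPKM in CFA libraries, against 0.241, 0 and 0.0724 FPKM in saline libraries (3.81, adjusted p = 0.00558). Il1b, which encodes interleukin-1 beta, was at 11.2, 6.15 and 12.9 FPKM, against 0.252, 0.179 and 0.0433 FPKM (3.21, adjusted p = 0.00194). Icam1 (2.30, adjusted p = 0.00173), an adhesion molecule for leukocytes, and Nfkb2 (1.57, adjusted p = 0.00394), an NF-kB subunit, rose too. Tnf, named after its values were seen, was listed at 0 in 10 of the 12 libraries and at no more than 0.0991 FPKM in the others. Without thalamus CFA libraries 1 and 2, 3 of the 14 were called.

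In RVM none of these 6 lists held a call. The medians were 1.18 for the other receptors, 0.14 for delivery and trafficking, 0.18 for adaptors and kinases, 0.14 for inhibitors, 0.04 for endogenous ligands and 0.83 for targets. The smallest p-values belonged to Ly86 (2.18) and Cd180 (1.18), Tasl (1.23) and Unc93b1 (1.25), Map3k8 (0.77) and Ticam2 (0.66), Socs1 (0.65) and Lyn (0.96), S100a9 (1.75) and S100a8 (0.86), and Icam1 (0.88) and Il1b (1.19). Without the second RVM CFA library, with the same limit as above, 2 other receptors, 3 delivery and trafficking genes, 2 adaptors and kinases, 2 inhibitors and 4 targets were called.

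**Figure D5:**
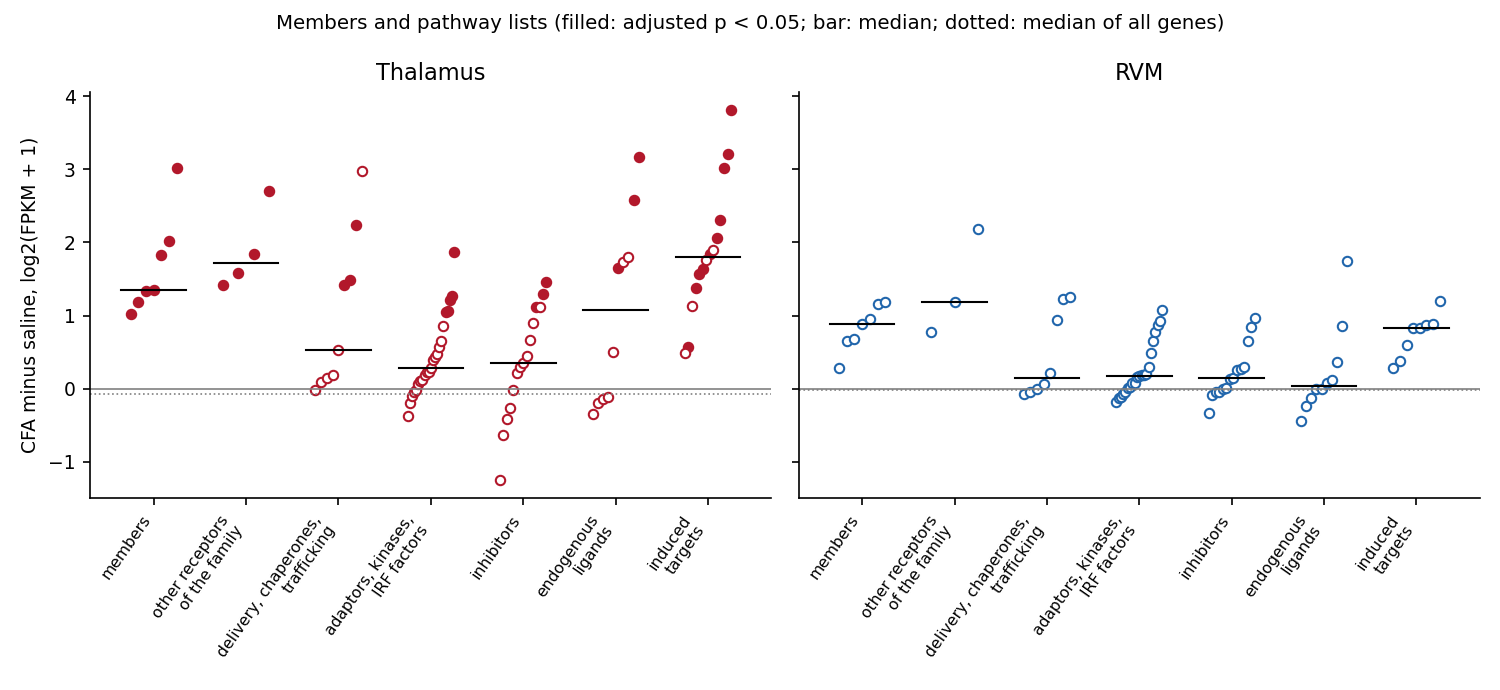
CFA minus saline on the log2(FPKM + 1) scale for the 7 genes tested and for 6 lists of pathway genes, in thalamus (left) and RVM (right). Bars are medians, filled points passed an adjusted p of 0.05, and the dotted line is the median of all genes tested, −0.08 in thalamus and −0.02 in RVM.

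The genes whose profile over the 12 libraries was most like each member were found by the root mean square (RMS) difference of log2(FPKM + 1) after centring each gene on its own mean. Tlr2, whose own RMS deviation was 0.89, was closest to Tbxas1 (0.11), Cyth4 (0.12) and Spi1 (0.12). Spi1 stood at 15.7 ± 1.91 FPKM in thalamus CFA and 2.90 ± 0.38 FPKM in thalamus saline, and at 9.76 ± 4.95 FPKM in RVM CFA and 3.24 ± 0.53 FPKM in RVM saline (SD, n = 3 each). Cd14, with an own RMS deviation of 1.198, was closest to Cxcl9 (0.25), an interferon-induced chemokine, Bcl2a1 (0.30), a survival factor of leukocytes, and Lrrc25 (0.32). Tlr1 was closest to Csf1r (0.15), the receptor that microglia need to survive, Gbp5 (0.16) and Mefv (0.17). Tlr7 was closest to Nlrp3 (0.14), an inflammasome sensor, Arhgap9 (0.16) and Cd300lf (0.18). Tlr4 was closest to Psme2 (0.15), a proteasome activator subunit, Psd4 (0.16) and Golm1 (0.17). Tlr3 was closest to Syngr2 (0.15), Fuca1 (0.17), a lysosomal fucosidase, and Rab13 (0.18). Myd88 was closest to Ppp1r18 (0.13), Tnfrsf1a (0.13), a receptor of tumour necrosis factor, and Dnase2 (0.13), a lysosomal nuclease. Tlr9 was below the level needed for this comparison.

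By the coordinates of the deposited table, for which the sources used here name no build, the 8 genes are protein-coding and lie on 7 chromosomes, with Tlr9 (8:114916122-114920171) and Myd88 (8:128022473-128026841) on the same one. The others are Cd14 (18:29560365-29562153), Tlr1 (14:45062662-45081991), Tlr2 (2:182840727-182846061), Tlr3 (16:50016857-50031214), Tlr4 (5:82587420-82601052) and Tlr7 (X:28486869-28512957). None overlapped another row of the table on either strand.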

How the data were processed

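The labels place 12 rat libraries in 4 groups by tissue and treatment. The authors deposited FPKM per gene, per the file headers. The labels' protocols name Trizol extraction and an Illumina TruSeq kit with 1 ug of total RNA, with no statement on strand. The sources used here name no aligner, counter or build. FPKM multiplied by gene length was a whole multiple of 1 step for 100% of values (tolerance 0.01). The totals the authors divided by were 0.934 to 1.17 times the recovered reads, and 1.11 to 1.17 times in thalamus CFA, so the deposited values carry a further scaling.

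Tests used limma 3.58.1 (R 4.3.3) with trended empirical Bayes on log2(FPKM + 1), over genes whose mean reached 1 FPKM, and genes were called at a Benjamini-Hochberg adjusted p below 0.05. Such differences understate the change of low genes. Gene names were matched to RefSeq promoters (GRCr8). Replicate numbers of the titles were checked for pairing, and the result was not consistent. Some libraries correlated best with their own number and others did not. Alternatives were a pseudocount of 0.1, no filter and 5 FPKM, 3 scalings, a single model, a replicate block, robust Bayes, limma-voom on recovered reads and leaving out libraries. The fits were tested on simulated data.

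The 9 genes and the 6 pathway lists (97 symbols) were chosen with earlier results of these data known. All members are named. From each list up to 4 genes that passed are named by smallest p, otherwise 2, and for each member the 3 genes most alike. Counts of list genes without doubted libraries were added after seeing the data.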

Additional observations from a re-analysis of the deposited data

How the results depend on the processing

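Thalamus calls in the set numbered 7, and 3 to 6 when each library was left out in turn, 2 (of 2 tested) with a filter at 5 FPKM, 1 without thalamus CFA libraries 1 and 2, and 5 to 7 otherwise. The lowest counts were 3 without saline library 2 and 4 without saline library 3. RVM calls ranged from 0 to 3 over the same kind of fits, with 3 without CFA library 2. Interaction calls were 0, and 1 without thalamus saline 1 and CFA 1. Region calls in saline rats were 1, 2 with no filter and 0 at 5 FPKM, where no gene of the set was tested. In CFA rats they were 1, 3 at the same FPKM total and 2 with all 12 libraries in a single model. Tlr3 in thalamus also missed the threshold with no filter (adjusted p = 0.0686) and with quantile normalization (0.0690).

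The uncalled region difference of Tlr7 in saline rats changed sign with quantile normalization (−0.036) and ran from −0.172 to 0.114 with libraries left out. In CFA rats Tlr3 reached 0.014 and Tlr4 0.167 at the same FPKM total, and Tlr4 ran from −0.218 to 0.057 with libraries left out. In the other fits run, no gene of the set changed sign. The cause was not tested.

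With a replicate block, the calls in the set were 7, 0, 0, 1 and 1 in the 5 comparisons, as without it, while over all genes it gave 1338 calls in thalamus, against 605 without it. Deviations of same-numbered libraries correlated at −0.037 to 0.364, and some libraries correlated best with another number, so the numbers were not taken to pair the libraries. All genes called in thalamus were 298 at 5 FPKM, 1932 in the single model and 98 without CFA libraries 1 and 2. At 1 to 15 reads, Tlr1 and Tlr9 in saline libraries are the least precise values.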
